A study of Ailuropoda melanoleuca with 25 samples.

Results

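The genes described here are 48 complement, coagulation and serpin genes of the giant panda (Ailuropoda melanoleuca), out of 25376 genes in the deposited expression table. They were picked by their names from the study's lists of tissue-specific differentially expressed genes, which name 1778 genes. The choice therefore used measured differences between the tissues of these same libraries. Of the 48 genes, 32 were listed for the liver alone, 13 for the liver and at least one further tissue, and 3 for the heart, kidney or spleen without the liver. The name pattern also took in the hemopexin gene HPX and the inter-alpha-trypsin inhibitor genes AMBP and ITIH1 to ITIH4, which encode plasma proteins outside the complement and clotting cascades, and CPNE7, which encodes a copine, a calcium-dependent membrane-binding protein. CPNE7 belongs to none of these families and is given for completeness.

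RNA sequencing libraries were made from the liver, spleen, kidney, lung and heart of 5 captive giant pandas that had died, giving 25 libraries and 5 for each tissue. Panda 1 was a female labelled with age 27 and a death from ovarian cancer. Panda 2 was a female labelled with age 9, whose cause of death is written as "ileac pssion". Pandas 3, 4 and 5 were labelled with age 0.5 and a death from coronavirus infection, and panda 5 was the only male. The labels give no unit for age. The age, the cause and the year of death change together between panda 1, panda 2 and the other 3 pandas, so that their effects cannot be told apart, and no panda was a healthy control. Expression is given as FPKM, a count of sequenced fragments scaled by the exon length of the gene and by the depth of the library. In whole tissue, fewer cells of a type and less RNA for each cell cannot be told apart.

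Complement is a set of plasma proteases and binding proteins that tag microbes and damaged cells and can assemble a pore in their membranes. Coagulation is a second cascade of plasma proteases, which ends in thrombin and fibrin, while plasmin later dissolves the clot. Serpins are protease inhibitors that trap their target after it cleaves them, and several restrain these cascades. Most of these proteins are secreted by hepatocytes, the main cell type of the liver, although some components are also made by macrophages, fibroblasts and endothelial cells.

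The libraries held between 13149580 and 21383380 reads assigned to genes, with a median of 16215829. A count of 3 reads in a gene with 1 kb of exon corresponded to 0.140 to 0.228 FPKM, which was taken as the floor for counting error alone. The markers of each tissue were highest in the libraries carrying its label. The summed cardiomyocyte markers reached 64482 to 79546 FPKM in the hearts and at most 63.4 FPKM elsewhere, the kidney tubule markers 1091 to 12935 FPKM in the kidneys and at most 13.6 FPKM elsewhere, and the lung epithelial markers 14798 to 49265 FPKM in the lungs and at most 157 FPKM elsewhere. The hepatocyte markers summed to 18066 to 54589 FPKM in the livers, and the B cell markers to 447 to 874 FPKM in the spleens. The liver of panda 3 and the kidney of panda 4 had the lowest sum of their own tissue's markers, and the calls that use them are given with and without them.

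Because the tissue lists chose the genes, the high level in the liver is a description and was not tested. The mean was highest in the liver for 46 of the 48 genes and in the spleen for the other two, F5 and CPNE7. Every liver library was above every library of the other tissues for 29 genes, a count that the choice favours and that was not made over all genes. Among the 46 genes, the second-highest tissue was the kidney for 16, the lung for 15, the spleen for 12 and the heart for 3. The kidney count includes SERPINA7, which was at 0 in every tissue but the liver. For 15 of the 46 genes the second mean was at or below 1 FPKM, so that their second tissue can rest on few reads. A mean above 1 FPKM was reached by all 48 genes in the liver, by 27 in the kidney, 25 in the lung, 23 in the spleen and 15 in the heart, and 15 genes passed it in the liver and in no other tissue.

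**Figure D1:**
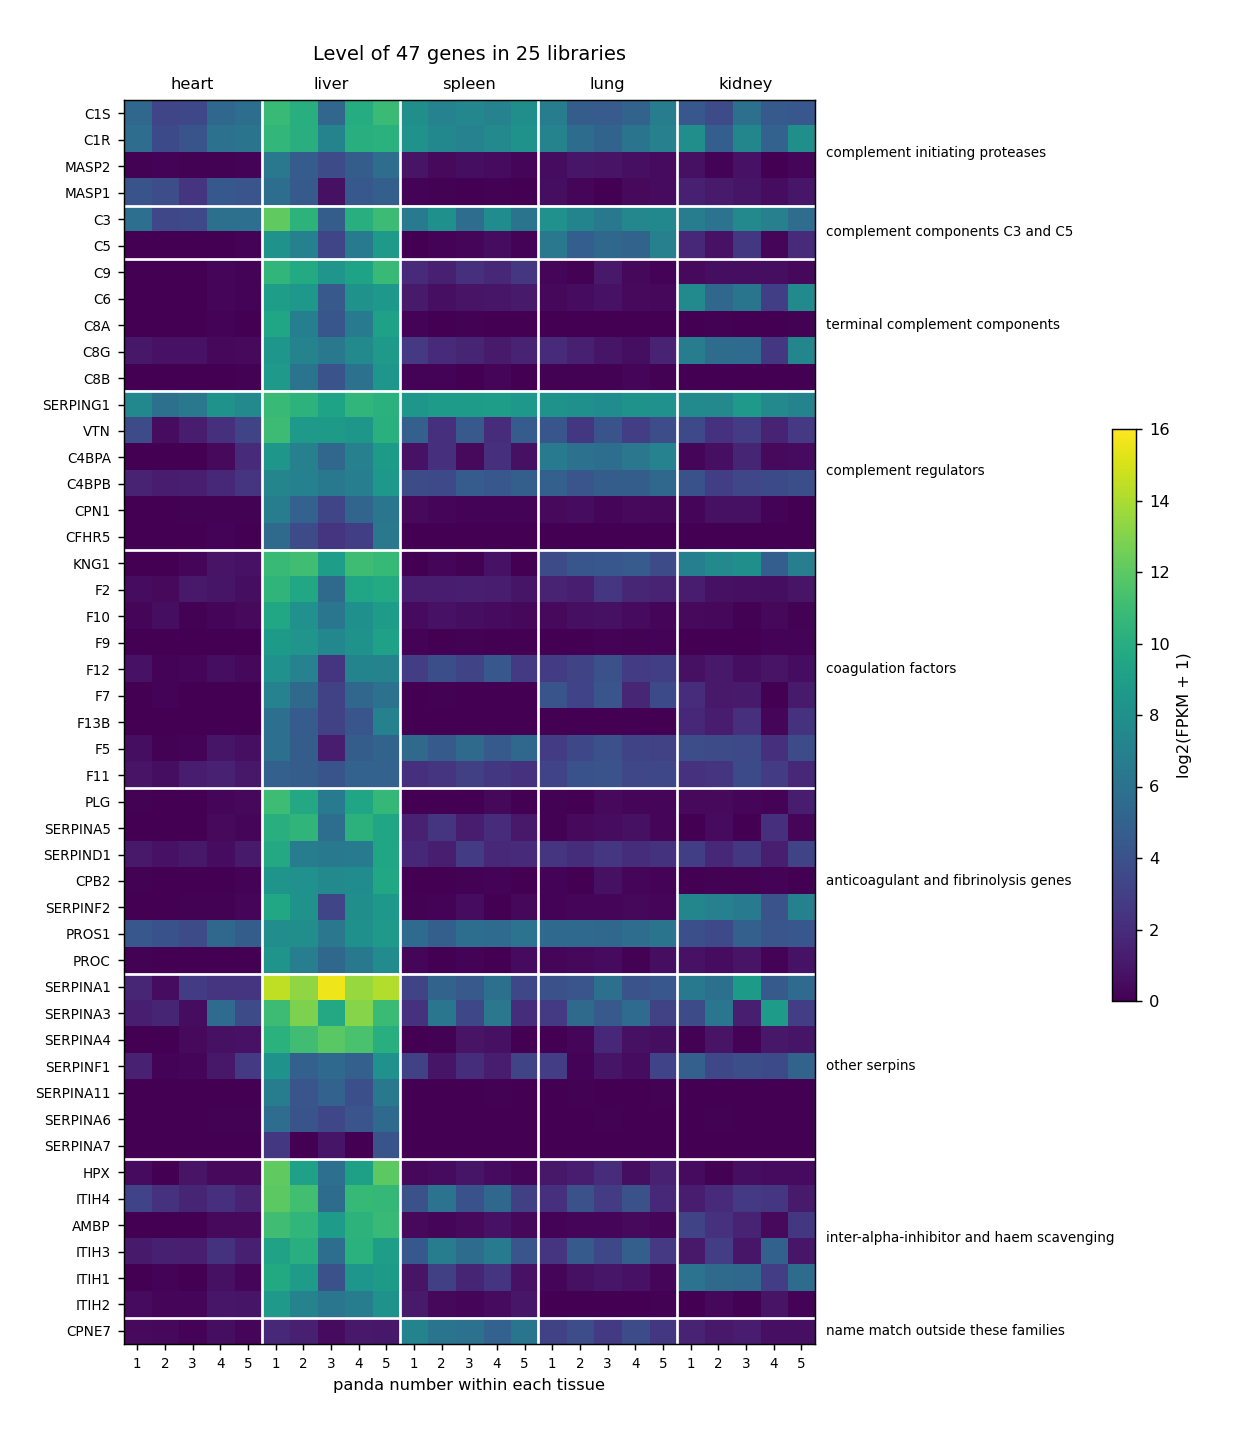
Colour shows log2(FPKM + 1) of 47 of the 48 genes (vertical axis, grouped by role) in the 25 libraries (horizontal axis, grouped by tissue and ordered by panda). The 5 liver libraries form the strong block, the liver of panda 3 is paler than the other livers for most genes, and CPNE7 is strongest in the spleens.

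Together the 48 genes held 7.09, 3.47, 4.67, 3.45 and 4.87% of the FPKM in the livers of pandas 1 to 5, a mean of 4.71 ± 1.49% (SD, n = 5) and 4.72 ± 1.72% (SD, n = 4) without panda 3. They held far less elsewhere, with 0.0841 to 0.184% for the kidneys, 0.111 to 0.166% for the spleens, 0.0755 to 0.135% for the lungs and 0.0133 to 0.0579% for the hearts. SERPINA1, which encodes alpha-1-antitrypsin, the main plasma inhibitor of neutrophil elastase, was the largest single part. It alone held 2.46, 0.887, 3.96, 0.993 and 1.73% of the FPKM in the livers of pandas 1 to 5. Without it, the liver share of the remaining genes was 4.63, 2.58, 0.708, 2.46 and 3.15%, which puts panda 3 lowest, whereas the share with SERPINA1 does not.

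The proteases of the C1 complex, which start the classical pathway, were also high in the spleen. They are encoded by C1R and C1S. C1S (ENSAMEG00000013668) was at 1747, 1091, 38.7, 941 and 1931 FPKM in the livers of pandas 1 to 5 and at 247, 134, 172, 136 and 249 FPKM in the spleens. Its kidney values were 19.5, 12.05, 57.8, 22.5 and 19.3 FPKM, its lung values 111, 25.4, 23.2, 33.1 and 109 FPKM, and its heart values 41.7, 9.31, 10.1, 39.4 and 53.6 FPKM. Every spleen was thus above every heart, lung and kidney library. C1R (ENSAMEG00000013566) was at 1544, 1073, 142, 1113 and 1184 FPKM in the livers and at 282, 178, 134, 185 and 290.1 FPKM in the spleens. It was at 52.0, 10.8, 16.7, 62.4 and 69.3 FPKM in the hearts, 145, 48.8, 35.4, 69.8 and 125 FPKM in the lungs, and 239, 26.7, 164, 31.3 and 251 FPKM in the kidneys. The kidneys of pandas 1 and 5 were thus as high as spleens for C1R but not for C1S. The ratio of C1R to C1S was 12.2 and 13.03 in these kidneys, 1.40 to 2.84 in the other 3 kidneys, and 0.613 to 2.11 in all other libraries except the liver of panda 3, where it was 3.67.

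The lectin pathway protease MASP1, which the study listed for the kidney, was high in the heart. MASP1 (ENSAMEG00000000843) was at 16.8, 12.7, 4.58, 19.8 and 17.5 FPKM in the hearts and at 53.7, 21.9, 0.651, 20.4 and 27.6 FPKM in the livers. The kidneys held 1.60, 1.21, 0.904, 0.459 and 0.967 FPKM, the lungs 0.517, 0.177, 0.0339, 0.351 and 0.383 FPKM, and the spleens 0.102, 0.0693, 0.0343, 0.0617 and 0 FPKM. The kidney was therefore the middle tissue for this gene, and the hearts did not overlap with the spleens, lungs or kidneys. Its partner MASP2, which cleaves C4 and C2, had a liver mean of 39.0 FPKM and at most 0.922 FPKM in any library of another tissue.

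C3, the protein on which all complement pathways meet, ranged widely among the livers. C3 (ENSAMEG00000007161) was at 4347, 1302, 24.8, 1109 and 2040.2 FPKM in the livers of pandas 1 to 5, so that the liver of panda 3 was below all 5 spleens and lungs. It was at 89.6, 256, 52.0, 221 and 71.4 FPKM in the spleens, 273, 150.2, 87.6, 166 and 175 FPKM in the lungs, 107, 68.1, 185, 124 and 52.2 FPKM in the kidneys, and 57.6, 9.76, 10.5, 60.3 and 56.6 FPKM in the hearts. C5, which starts the membrane pore, had a second place of high level in the lung. Its lung values were 83.7, 26.4, 41.3, 32.4 and 126 FPKM beside 285, 131, 9.00, 101 and 404 FPKM in the livers, and no spleen or heart library passed 0.446 FPKM.

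The terminal genes encode the parts of the membrane attack complex. C9 (ENSAMEG00000017094), the pore-forming subunit, was at 1458, 898, 323, 617 and 1743 FPKM in the livers. It was listed for the spleen as well, where it held 2.96, 1.66, 3.74, 2.48 and 4.73 FPKM, against at most 1.10 FPKM in the hearts, lungs and kidneys. C6 and C8G were the members of this group with a high kidney level. C6 was at 197, 40.6, 74.1, 6.94 and 190.3 FPKM in the kidneys and at 20.7 to 500.4 FPKM in the livers, and C8G at 111, 48.4, 46.3, 5.14 and 159 FPKM in the kidneys and at 83.5 to 379 FPKM in the livers. The chains that join C8G in the C8 protein did not share its kidney level: C8A reached at most 0.0670 FPKM and C8B was listed at 0 in all 5 kidneys, while in the livers C8A was 1.16 to 1.87 times C8B.

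Of the complement regulators, SERPING1 and VTN were second in the spleen and C4BPA and C4BPB in the lung, whereas CPN1 and CFHR5 had no mean above 1 FPKM outside the liver. SERPING1 (ENSAMEG00000014526), the C1 inhibitor, which also inhibits kallikrein and factor XIIa, had the smallest fold between its highest and lowest tissue mean among the 48 genes. It was at 1738, 1315, 617, 1472 and 1194 FPKM in the livers, 356, 465, 462, 496 and 366 FPKM in the spleens, and 293, 261, 215, 302 and 278 FPKM in the lungs. The kidneys held 200.2, 184, 402, 182 and 141 FPKM and the hearts 174, 59.998, 82.9, 300.4 and 185 FPKM. C4BPA and C4BPB encode the chains of C4b-binding protein, a cofactor for the breakdown of C4b. C4BPB (ENSAMEG00000003516) was at 156, 131, 87.9, 113 and 372 FPKM in the livers, 29.6, 17.3, 25.8, 24.9 and 40.3 FPKM in the lungs, and 11.6, 10.7, 24.5, 19.1 and 28.2 FPKM in the spleens. It was at 15.3, 6.79, 9.56, 11.1 and 13.4 FPKM in the kidneys and at 1.89, 1.37, 1.53, 2.51 and 4.19 FPKM in the hearts, below every library of the other tissues. The ratio of C4BPA to C4BPB was 0.431 to 2.23 in the livers and 2.07 to 3.66 in the lungs, but 0.0133 to 0.318 in the spleens and 0.0129 to 0.232 in the kidneys, where little C4BPA was measured.

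Among the coagulation factors, F5 departed from the liver pattern. F5 (ENSAMEG00000011403), the cofactor of factor Xa, was at 45.2, 21.8, 44.9, 22.5 and 40.4 FPKM in the spleens and at 55.98, 24.99, 1.31, 25.3 and 32.5 FPKM in the livers. It was at 6.33, 9.93, 14.6, 8.65 and 7.87 FPKM in the lungs, 13.02, 11.95, 10.7, 3.48 and 12.1 FPKM in the kidneys, and 0.483, 0.0862, 0.134, 0.860 and 0.589 FPKM in the hearts. The study listed it for the heart, where it was lowest, and the spleens and livers overlapped. The mean of F5 was higher in the spleen, although in 3 of the 5 pandas the liver was higher. The low liver of panda 3 weighs on this order.

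KNG1 (ENSAMEG00000000994), which encodes kininogen, the source of bradykinin, had the highest liver mean of the coagulation group. It was at 1817, 2201, 486, 2062 and 1671 FPKM in the livers, 118, 181, 245, 26.3 and 112 FPKM in the kidneys and 11.6, 18.3, 18.9, 22.9 and 12.01 FPKM in the lungs, with at most 0.818 FPKM in the hearts and spleens. The contact factors F11 and F12 were also measured outside the liver. F11 (ENSAMEG00000005085) was at 29.2, 25.3, 16.6, 31.8 and 31.4 FPKM in the livers. It was at 8.18, 15.1, 16.3, 9.63 and 9.94 FPKM in the lungs, 3.65, 4.47, 7.29, 4.94 and 3.83 FPKM in the spleens, 3.96, 4.24, 11.2, 6.24 and 2.53 FPKM in the kidneys, and 0.781, 0.486, 1.29, 1.78 and 1.02 FPKM in the hearts. F12 (ENSAMEG00000018129) was at 276, 138, 4.23, 146 and 144 FPKM in the livers, 6.48, 13.4, 8.56, 19.7 and 5.57 FPKM in the spleens, and 5.78, 8.89, 14.3, 6.20 and 6.92 FPKM in the lungs. F12 did not pass 1.12 FPKM in any heart or kidney, and for this gene the liver of panda 3 lay under all spleens and lungs.

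Prothrombin (F2), factor X (F10) and factor IX (F9) were low outside the liver in these libraries. F2 was at 44.3 to 1429 FPKM in the livers and at most 4.74 FPKM elsewhere, F10 at 78.3 to 739 FPKM and at most 0.694 FPKM, and F9 at 175 to 579 FPKM and at most 0.137 FPKM. F7, which starts clotting with tissue factor, differed from its neighbour F10 in the lung. F7 was at 17.1, 8.38, 17.9, 2.31 and 11.1 FPKM in the lungs, and the ratio of F7 to F10 was 6.32 to 66.1 there but 0.102 to 0.183 in the livers.

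Of the anticoagulant and fibrinolysis genes, PLG (ENSAMEG00000015960), which encodes plasminogen, had the highest liver mean. PLG was at 2071, 792, 94.9, 719 and 1632 FPKM in the livers and at most 1.30 FPKM elsewhere. SERPINF2 (ENSAMEG00000007857), which encodes the plasmin inhibitor alpha-2-antiplasmin, was at 761, 296, 8.96, 245 and 367 FPKM in the livers and at 163, 126, 91.8, 16.2 and 129 FPKM in the kidneys. The kidney of panda 3 was thus above its liver for SERPINF2, and the hearts, spleens and lungs did not pass 0.449 FPKM. PROS1, which encodes protein S, a cofactor of activated protein C, was spread over all tissues, at 79.6 to 388 FPKM in the livers, 41.6 to 71.3 FPKM in the lungs, 28.3 to 68.0 FPKM in the spleens, 11.4 to 41.3 FPKM in the hearts and 10.8 to 29.5 FPKM in the kidneys. Its partner protein C, encoded by PROC, was at 39.0 to 316 FPKM in the livers and at most 0.819 FPKM elsewhere.

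The other serpins covered the widest range of liver means, SERPINA1 having the highest of the 48 genes. SERPINA1 (ENSAMEG00000006318) was at 22712, 10328, 49208, 12066 and 18348 FPKM in the livers of pandas 1 to 5. SERPINA1 was at 87.0, 58.7, 420.7, 22.05 and 47.6 FPKM in the kidneys, 14.7, 17.9, 59.3, 15.8 and 19.5 FPKM in the lungs, 8.68, 33.4, 20.9, 59.0 and 10.02 FPKM in the spleens, and 2.35, 0.467, 5.999, 4.45 and 4.33 FPKM in the hearts. Panda 3 had the highest SERPINA1 in the heart, liver, lung and kidney. SERPINA3 (ENSAMEG00000006430), the acute-phase inhibitor alpha-1-antichymotrypsin, was ordered differently among the pandas. It was at 2002, 7383, 792, 8657 and 1902 FPKM in the livers, 3.82, 78.1, 9.94, 81.1 and 3.32 FPKM in the spleens and 5.54, 45.2, 21.2, 47.4 and 7.56 FPKM in the lungs. The kidneys held 11.4, 77.6, 1.52, 434 and 6.48 FPKM of SERPINA3 and the hearts 1.51, 2.14, 0.426, 47.9 and 12.2 FPKM. Pandas 2 and 4 were thus the highest for SERPINA3 in the liver, spleen, lung and kidney. At the other end of this group, SERPINA7, which encodes thyroxine-binding globulin, was at 5.07, 0.867 and 17.0 FPKM in the livers of pandas 1, 3 and 5 and was listed at 0 in every other library.

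**Figure D2:**
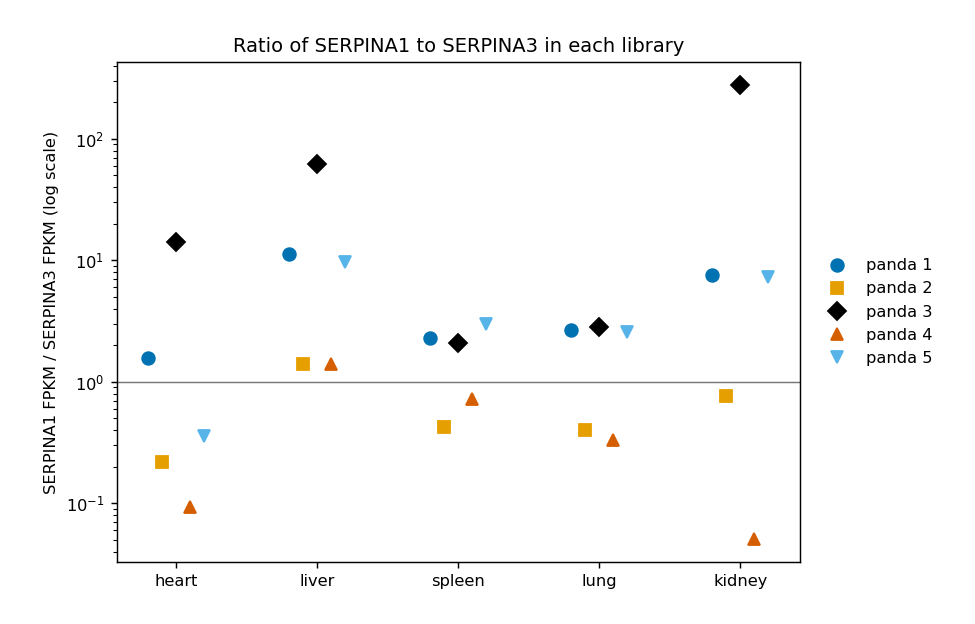
Points give the FPKM of SERPINA1 divided by that of SERPINA3 (vertical axis, log scale) in each library by tissue (horizontal axis) and coloured by panda. The ratio is lowest for pandas 2 and 4 in every tissue (1.40 and 1.39 in the liver), and runs from 0.0508 (panda 4) to 278 (panda 3) in the kidney.

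The ratio of these serpins makes the difference between pandas plain. SERPINA1 over SERPINA3 was 11.3, 1.40, 62.2, 1.39 and 9.65 in the livers, 2.28, 0.427, 2.102, 0.728 and 3.02 in the spleens, and 2.66, 0.397, 2.80, 0.333 and 2.58 in the lungs. SERPINA3 exceeded SERPINA1 in the spleen, lung, kidney and heart of pandas 2 and 4, and otherwise only in the heart of panda 5. FPKM is scaled by gene length, and a ratio between genes still carries any error in the gene models.

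Of the inter-alpha-inhibitor genes, ITIH1, ITIH2 and ITIH3 encode heavy chains that are joined to bikunin, the product of AMBP, and can pass to hyaluronan in the extracellular matrix. HPX (ENSAMEG00000016372), the haem carrier of plasma, had the highest liver mean of this group at 1920.1 ± 2107 FPKM (SD, n = 5), with single values of 4379, 559, 57.3, 557 and 4047 FPKM. Pandas 1 and 5 were far above the others for HPX, and no other tissue passed 3.12 FPKM. ITIH4 (ENSAMEG00000008108) was at 3969, 2285, 49.9, 1695 and 1588 FPKM in the livers, 14.95, 68.7, 15.7, 42.2 and 7.03 FPKM in the spleens, 3.44, 14.3, 5.84, 14.9 and 2.63 FPKM in the lungs, 1.40, 2.76, 5.60, 4.66 and 1.22 FPKM in the kidneys, and 8.34, 3.94, 2.13, 3.67 and 2.02 FPKM in the hearts. ITIH3 (ENSAMEG00000008201) was at 600.4, 1047, 54.7, 1195 and 487 FPKM in the livers, 19.9, 108, 50.5, 101 and 17.8 FPKM in the spleens, and 4.30, 22.3, 10.04, 28.0 and 5.27 FPKM in the lungs. ITIH3 was at 1.13, 6.50, 0.943, 30.03 and 0.936 FPKM in the kidneys and 1.21, 1.70, 1.54, 4.03 and 1.68 FPKM in the hearts, with pandas 2 and 4 again the highest in every tissue. ITIH1 (ENSAMEG00000008282) had its second tissue in the kidney, at 67.3, 44.8, 40.4, 6.53 and 50.2 FPKM beside 833, 461, 14.9, 342 and 413 FPKM in the livers, whereas ITIH2 stayed at or below 0.786 FPKM in the kidneys.

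The copine gene CPNE7 (ENSAMEG00000001125) was at 148, 71.0, 62.0, 31.7 and 74.6 FPKM in the spleens and at 7.70, 12.7, 5.59, 12.3 and 5.12 FPKM in the lungs. CPNE7 was at 2.36, 1.59, 0.365, 1.10 and 1.005 FPKM in the livers, 2.06, 1.14, 1.35, 0.592 and 0.603 FPKM in the kidneys, and 0.298, 0.295, 0.103, 0.506 and 0.191 FPKM in the hearts. Its order of tissues was shared by no complement, coagulation or serpin gene, and the liver was not among its 2 highest tissues.

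Neighbouring genes of the set did not always have the same second tissue. In the RefSeq annotation of another panda assembly (ASM200744v3), used for names and order alone, 46 of the 48 symbols were found and 18 of them lay in 8 runs with at most 2 protein-coding genes between members. These runs were SERPINF1 with SERPINF2, SERPINA4 with SERPINA5 and SERPINA3, C1S with C1R, C8A with C8B, ITIH1 with ITIH3 and ITIH4, F7 with F10, C4BPA with C4BPB, and CFHR5 with F13B. SERPINF1 and SERPINF2 had the kidney as their second tissue, at means of 19.5 and 105 FPKM. In the ITIH run, by contrast, ITIH1 was second in the kidney while ITIH3 and ITIH4 were second in the spleen.

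Tests were confined to pairs of tissues that a gene's lists did not use, which leaves mostly the tissues in which the genes were low. The test was limma with trend on log2(FPKM + 1), with Benjamini-Hochberg adjustment over all genes with a mean above 1 FPKM in either tissue, and a call required a log2 difference beyond 2 with an adjusted p below 0.05. Fold changes on this scale understate the change of genes near or under 1 FPKM, and comparisons that share a tissue share its 5 libraries. In all, 25 of the 48 genes passed the low-value filter in at least 1 such pair, and 11 genes gave 26 calls. The 4 calls of MASP1 are not independent of the choice, because its listed tissue, the kidney, lay between the tissues compared. In every call of MASP1 and F12, and in that of CPNE7 between heart and lung, the lower tissue had a mean under 1 FPKM. The gene then passed the filter through the higher tissue alone. The direction of these calls was therefore fixed in advance, and they are given as a description. All 26 calls had the same direction in 5 of 5 pandas, and groups overlapped only for ITIH4 between heart and spleen and for ITIH3 between spleen and kidney. The rule for a call itself makes such separation likely, and the share over all genes was not counted.

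**Figure D3:**
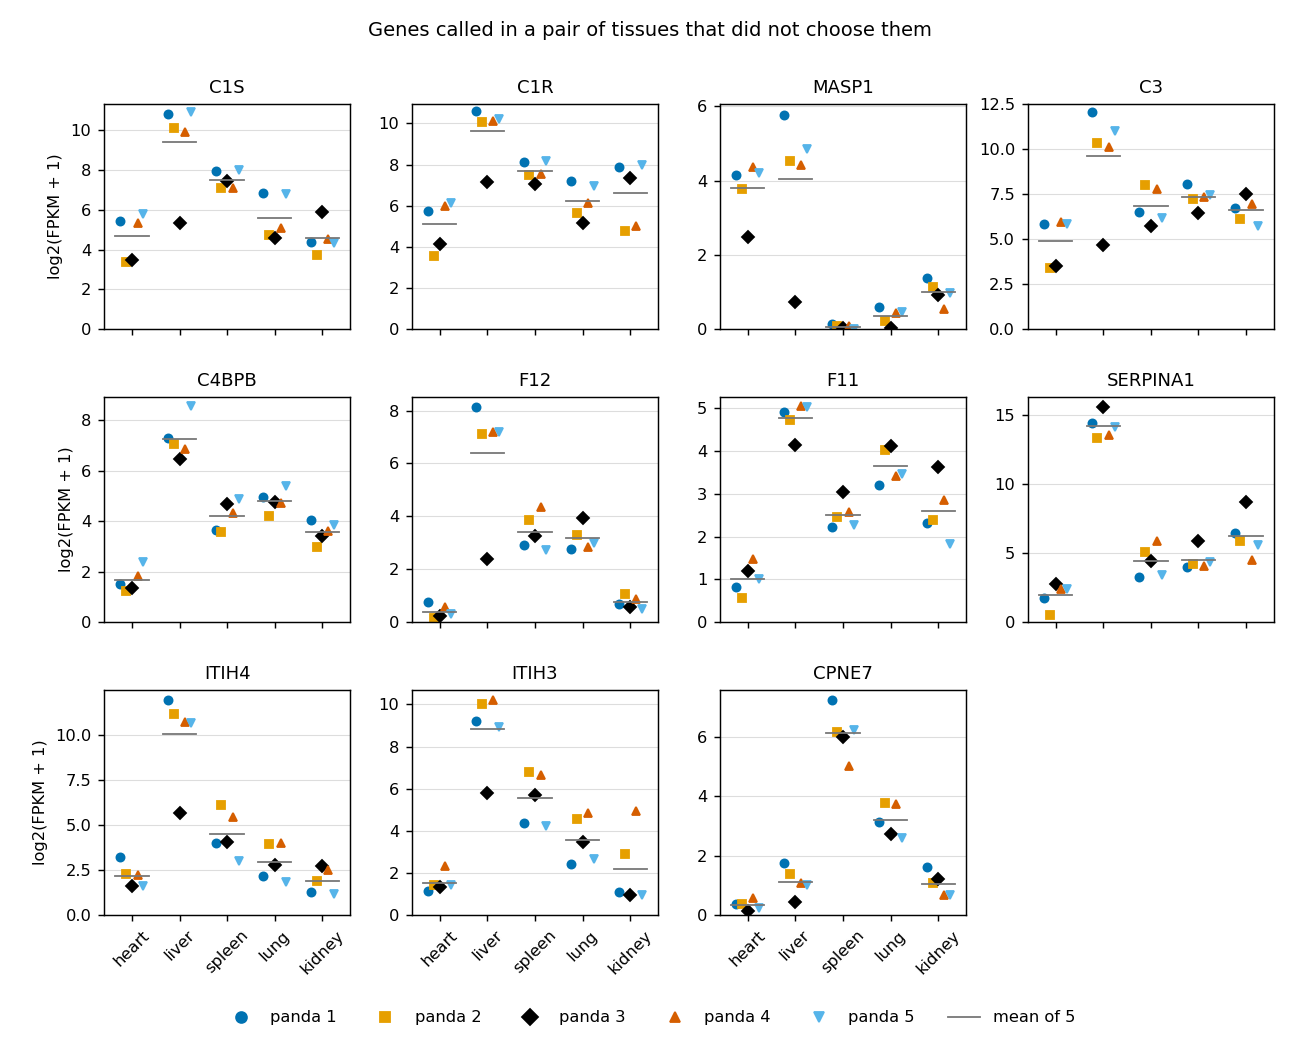
Points give log2(FPKM + 1) (vertical axis) of the 11 genes called in pairs of tissues their lists did not use, by tissue (horizontal axis) and coloured by panda, with a grey line at the mean of 5. MASP1 is at the bottom in the spleen and lung and high in the heart, whereas C4BPB, F11 and F12 are lowest or near the bottom in the heart.

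Without further scaling of the libraries, the heart was the tissue with the most calls. Under TMM factors and under quantile normalization, more calls involved the spleen than the heart. Against the spleen, 22 of the 45 genes open to the test passed the filter and 8 were called, 1 higher and 7 lower in the heart, where 23.3% of all genes tested were called, 3.88% higher and 19.4% lower. Against the lung, 20 of 42 passed the filter and 8 were called, again 1 higher and 7 lower, beside 22.9% of all genes, 3.4% higher and 19.5% lower. All genes together were also lower in the heart: the median log2 difference was -1.52 over the genes described and -1.16 over all genes for the spleen, and -1.29 and -1.17 for the lung. TMM factors, which scale libraries on the bulk of their genes, moved the all-gene medians to -0.18 and -0.17 and changed all calls against the spleen from 626 higher and 3126 lower to 1268 and 1184, and against the lung from 561 and 3229 to 1184 and 1054. Under TMM factors 3 genes were called between heart and spleen and 2 between heart and lung.

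MASP1 went against this shift and was the member higher in the heart. It was listed for the kidney, whose level lay below the heart and liver and above the spleen and lung. Its 4 calls between these tissues therefore largely follow from the choice of the gene and are given as a description. Its log2 difference was 3.73 (SE 0.31, adjusted p = 5.4e-07) from the spleen and 3.44 (SE 0.33, adjusted p = 1.53e-06) from the lung, and 4.35 and 4.16 under TMM factors. Between the liver and these tissues, where only 2 or 3 genes were open to the test and 29.9% (3.94% higher) and 29.0% (3.34% higher and 25.7% lower) of all genes were called, MASP1 was higher in the liver by 3.98 (SE 0.73, adjusted p = 0.000403) than in the spleen and by 3.70 (SE 0.73, adjusted p = 0.000691) than in the lung, and without the liver of panda 3 by 4.81 and 4.53. Between heart and liver, limma called 0 of the 2 genes open to it, MASP1 and CPNE7, beside 15.7% of all genes. CPNE7 had an unadjusted p below 0.05 there, at -0.78 on the log2 scale (adjusted p = 0.0174), and was called by limma-voom, and the hearts and livers overlapped for both genes.

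The contact factor F12 and the heavy chain gene ITIH3 were lower in the heart than in the spleen, and were called there under TMM factors too. F12 passed the filter in this pair only through the spleen. For F12 the log2 difference from the spleen was -3.02 (SE 0.30, adjusted p = 2.09e-06), or -2.27 under TMM factors, and for ITIH3 it was -4.01 (SE 0.49, adjusted p = 1.07e-05), or -2.91. C1S (-2.83, SE 0.47, adjusted p = 0.000117), C1R (-2.57, SE 0.48, adjusted p = 0.000297), C4BPB (-2.55, SE 0.31, adjusted p = 9.89e-06), SERPINA1 (-2.45, SE 0.53, adjusted p = 0.000995) and ITIH4 (-2.32, SE 0.53, adjusted p = 0.00133) completed the calls against the spleen, and none of these 5 was called under TMM factors. Under quantile normalization C1S was called at -2.06, beside F12 at -2.07 and ITIH3 at -2.83. The call for ITIH4 was also lost without the spleen of panda 2.

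Against the lung, C4BPB was lower in the heart by -3.13 (SE 0.27, adjusted p = 8.14e-07) on the log2 scale, CPNE7 by -2.85 (SE 0.26, adjusted p = 1.03e-06), F12 by -2.77 (SE 0.25, adjusted p = 9.83e-07) and F11 by -2.62 (SE 0.25, adjusted p = 1.51e-06). SERPINA1 (-2.52, SE 0.46, adjusted p = 0.000267), C3 (-2.41, SE 0.54, adjusted p = 0.00121) and ITIH3 (-2.05, SE 0.45, adjusted p = 0.00118) followed. F12 and CPNE7 passed the filter in this pair only through the lung. Of the 7 genes lower in the heart, CPNE7 alone was called under TMM factors, at -2.07, while C4BPB and F12 fell just inside the fold threshold at -1.98 and -1.99. Against the kidney, 15 of 36 genes passed the filter and SERPINA1 alone was called, beside 15.3% of all genes (12.3% lower), at -4.25 (SE 0.65, adjusted p = 0.000133), and at -3.60 under TMM factors and -4.68 without the kidney of panda 4. With the panda as a block, SERPINA3 was also called there, at -2.02 (SE 0.69, adjusted p = 0.0301), and without the block its adjusted p was 0.176.

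Between spleen and kidney, of 35 genes open to the test, 19 passed the filter and 4 were called, all higher in the spleen, where 14.3% of all genes were called and 8.06% were called higher. ITIH3 was higher by 3.37 (SE 0.78, adjusted p = 0.00312), C1S by 2.94 (SE 0.36, adjusted p = 2.86e-05), F12 by 2.67 (SE 0.33, adjusted p = 2.96e-05) and ITIH4 by 2.61 (SE 0.54, adjusted p = 0.00162) on the log2 scale. The median difference was 1.03 over the 19 genes and 0.41 over all genes. These 4 calls were also made under TMM factors, which added SERPINA1 as lower in the spleen at -2.24. Without the kidney of panda 4 they were 4.07, 2.94, 2.70 and 2.76, and SERPINA1 was called as lower in the spleen at -2.23. C1R, the partner of C1S, was not called. F12 passed the filter in this pair only through the spleen.

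Lung and kidney gave 2 calls among 18 of 35 genes, beside 12.2% of all genes, 7.36% called higher. F12 was higher in the lung by 2.42 (SE 0.29, adjusted p = 2.64e-05) and CPNE7 by 2.14 (SE 0.32, adjusted p = 0.000187), and with TMM factors these differences were 1.84 and 1.63, inside the fold threshold. SERPINA1 was then called as lower in the lung, at -2.21. F12 passed the filter in this pair only through the lung. Without the kidney of panda 4, F12 (2.45), CPNE7 (2.04) and ITIH3 (2.11) were called as higher in the lung and SERPINA1 as lower (-2.16). CPNE7 was also lower in the liver than in the lung, at -2.06 (SE 0.33, adjusted p = 0.000163), a call lost without the liver of panda 3 or the lung of panda 2 or 4. It was also lost under TMM factors and quantile normalization, where F5 was called instead as higher in the liver than in the lung, at 2.44 and 2.38. Between liver and kidney limma and limma-voom called 0 of the 2 genes open to the test, CPNE7 and F5, beside 14.0% of all genes, and neither had an unadjusted p below 0.05.

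Between spleen and lung none of the 21 genes tested, of 41 open to it, was called, beside 6.88% of all genes by limma. Of these genes 11 had an unadjusted p below 0.05, 8 had an adjusted p below 0.05 within the fold threshold, and limma-voom on recovered reads called 2, SERPINA5 and ITIH3. F5 (1.76, SE 0.28, adjusted p = 0.000488), C1S (1.91, SE 0.45, adjusted p = 0.00714), C1R (1.46, SE 0.38, adjusted p = 0.0119) and SERPINA5 (1.27, SE 0.27, adjusted p = 0.00339) were on the spleen side of these 8. F11 (-1.12, SE 0.24, adjusted p = 0.00426) was on the lung side. F5 was also above its kidney level in the spleen by 1.71 (SE 0.36, adjusted p = 0.00161), short of the fold threshold.

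Markers of hepatocytes were looked at beside these differences. Outside the liver their sum was 22.02 to 117 FPKM in the hearts, 298 to 1149 FPKM in the spleens, 3317 to 4944 FPKM in the lungs and 149 to 497 FPKM in the kidneys, and in the hearts, spleens and lungs most of it was APOA1, at 279 to 1128 FPKM in the spleens and 3276 to 4899.8 FPKM in the lungs. The marker AHSG was at most 0.793 FPKM in the spleens, 1.81 FPKM in the lungs and 1.06 FPKM in the kidneys, and CPS1 at most 0.132 FPKM in the spleens. Not all markers were as low: TF was at 11.9 to 18.6 FPKM in the spleens and APOH at 61.7 to 308 FPKM in the kidneys. C1S at 134 to 249 FPKM and SERPING1 at 356 to 496 FPKM in the spleens stand beside these values, and the part of hepatocyte RNA in them was not tested. Of the fibroblast markers 1 of 8 and of the macrophage markers 0 of 7 had an identifier, so that their part in the results was not tested.

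Of the further genes of these pathways, few could be matched to an identifier. Among other complement genes 4 of 28 were matched, and between lung and kidney, of 3 tested, CLU was lower in the lung (-2.17, SE 0.43, adjusted p = 0.00134) and COLEC11 higher (2.01, SE 0.37, adjusted p = 0.000726). CLU encodes clusterin, an inhibitor of the terminal complex, and COLEC11 a collectin that binds the MASP proteases. Among other coagulation genes 9 of 27 were matched and none was called in a pair its lists did not use. Among acute-phase genes 10 of 16 were matched, and TF, the transferrin gene, was lower in the heart than in the kidney (-2.08, adjusted p = 0.000159), while HAMP, the hepcidin gene, was lower in the spleen than in the lung (-2.75, SE 0.83, adjusted p = 0.0256).

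Within each tissue the 3 pandas labelled with coronavirus infection were compared with the other 2, and here a call required an adjusted p below 0.05 with no threshold of size. By limma no gene was called in any of the 5 tissues, which is 0.0% of all genes tested, and none of the genes described was called, of 15 tested (heart), 48 (liver), 23 (spleen), 25 (lung) and 27 (kidney), also not by limma-voom. At an unadjusted p below 0.05 there were 1, 0, 2, 0 and 0 of these genes, beside 558, 87, 1628, 180 and 456 of all genes, in the same order of tissues. These were SERPINA1 in the heart (1.41 higher on the log2 scale, SE 0.43) and C4BPB (1.02 higher, SE 0.25, adjusted p = 0.273) and C8G (-0.83, adjusted p = 0.462) in the spleen.

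In the liver the median log2 difference of the coronavirus pandas from the others was -0.81 over the 48 genes, 43 of them negative, and -0.39 over all genes. The largest were C3 (-2.62), ITIH4 (-2.55), SERPINF2 (-2.30), ITIH1 (-2.24) and F12 (-2.03), each with an adjusted p of 0.955. Without the liver of panda 3 these differences were -0.66, -0.88, -0.66, -0.72 and -0.43, and the medians -0.16 over the 48 genes, 34 of them negative, and -0.08 over all genes. The 3 coronavirus livers were all below the other 2 for CPNE7, ITIH4 and ITIH1, which is 3 of 48 genes beside 15.2% of all genes, and all above for none, beside 2.74%.

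In the other tissues the coronavirus libraries lay wholly on one side for few genes. In the heart they were all higher for F11 and SERPINA1 and all lower for ITIH4, beside 6.76% and 11.4% of all genes. In the spleen they were all higher for C4BPB and all lower for C8G, beside 11.5% and 15.8%. In the kidney they were all higher for PROS1 and all lower for MASP1, beside 7.65% and 12.1%, and in the lung no gene was on one side, beside 7.85% and 5.43%. Without the kidney of panda 4, SERPINA3 (-2.85, SE 0.59, adjusted p = 0.000487) and C1R (1.33, SE 0.34, adjusted p = 0.0128) had an adjusted p below 0.05 by limma in the kidney. They were among 231 such genes in all, where 15173 were tested with all kidneys. The fit without that kidney set only pandas 3 and 5 against pandas 1 and 2, so its p-values lean on the variance of all genes. For C1R these groups overlapped, since the kidney of panda 1 (239 FPKM) was above that of panda 3 (164 FPKM). The kidney of panda 2 held 26.7 FPKM.

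The livers differed widely from one another. The liver of panda 3 was the lowest of the 5 for 42 of the 48 genes, where it was lowest for 64.6% of all genes, and it lay under 0.5 times the median liver for 34. It was nevertheless the highest for SERPINA1 and SERPINA4, the latter encoding kallistatin, an inhibitor of tissue kallikrein, at 3869 FPKM beside 1086 to 2745 FPKM in the other livers. The liver of panda 1 was the highest for 28 genes (32.0% of all genes) and that of panda 5 for 13 (19.2%). The median ratio of the 48 genes to the median liver was 2.27, 1.0, 0.308, 0.901 and 1.76 in pandas 1 to 5. Neither this ratio nor the count under 0.5 times the median liver was taken over all genes. The liver of panda 3 was low for genes in general: its TMM factor was 0.242, beside 0.573 to 0.668 in the other livers. The low values there are thus not particular to the genes described. The hepatocyte marker sum was lowest in panda 3, at 18066 FPKM beside 26209.8 FPKM or more in the others, and 8 of the 12 markers were lowest there. APOC3, also a marker, was highest there, at 8211 FPKM beside 1699 to 2991 FPKM. The part of hepatocyte content in the result was not tested.

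**Figure D4:**
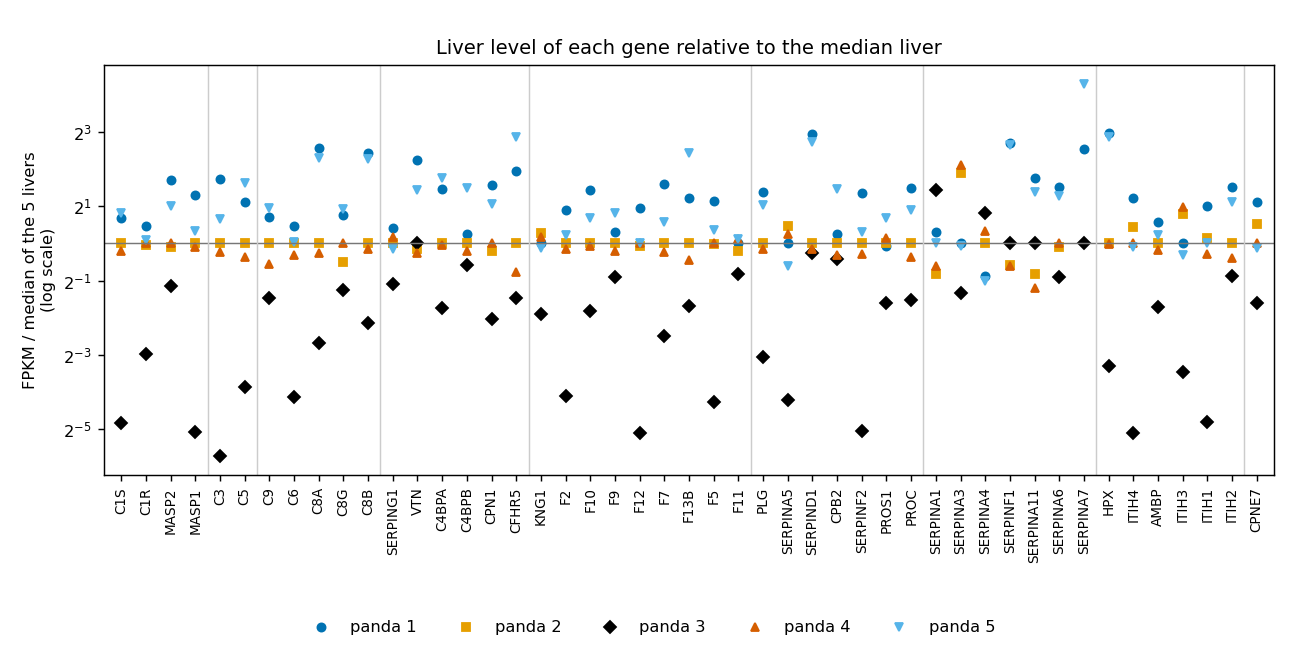
Points give the liver FPKM of 47 of the 48 genes (horizontal axis, grouped by role) divided by the median of the 5 livers (vertical axis, log scale), with colour and shape for the panda and the zeros of SERPINA7 in pandas 2 and 4 not drawn. Panda 3 lies under the line at the median liver for most genes and is the highest for SERPINA1 and SERPINA4.

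The kidney of panda 4 was the lowest of the kidneys for 15 of 27 genes, beside 46.9% of all genes, and its tubule marker sum was 1091 FPKM beside 9116 FPKM or more. It was the highest kidney for SERPINA3 and ITIH3. The heart of panda 2 was the lowest for 10 of 15 genes (36.0% of all genes), and that of panda 4 the highest for 8 of 15 (20.7%).

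Some pairs of pandas were alike in several tissues across the labels. In the liver, 46 of the 48 genes were within 1.5-fold between pandas 2 and 4, where 85.2% of all genes were, and the median absolute log2 difference over the 48 genes was 0.21. Between pandas 1 and 5, 26 of 48 were within 1.5-fold (48.2% of all genes), with a median of 0.50, which was still the smallest for either of them. By this median pandas 1 and 5 were each other's nearest in all 5 tissues, with a smallest median of 0.19 (spleen), then 0.30 (lung), 0.36 (heart), 0.40 (kidney) and 0.50 (liver). Pandas 2 and 4 were each other's nearest in the liver at 0.21, the spleen at 0.30 and the lung at 0.31. In the heart they were far apart, with a median of 1.67 over the genes described and 0.30 over all genes.

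Pandas 2 and 4 were within 1.5-fold for 15 of 23 genes in the spleen (69.7% of all genes), 19 of 25 in the lung (84.6%), 4 of 27 in the kidney (36.6%) and 1 of 15 in the heart (69.1%). Pandas 1 and 5 were within 1.5-fold for 16 of 23 in the spleen (74.4%), 19 of 25 in the lung (67.8%), 17 of 27 in the kidney (65.7%) and 9 of 15 in the heart (62.9%). Panda 1, labelled with ovarian cancer and age 27, was thus nearest to panda 5, a male labelled with coronavirus infection and age 0.5, and pandas 2 and 4 differ in the same labels except sex. Most shares of the genes described were near or below those of all genes, so the likeness was not particular to these genes. No 2 libraries were identical, and the closest pair of libraries differed by more than counting noise, with a median chi-square over genes of 3.003 where counting noise alone gives 0.455.

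**Figure D5:**
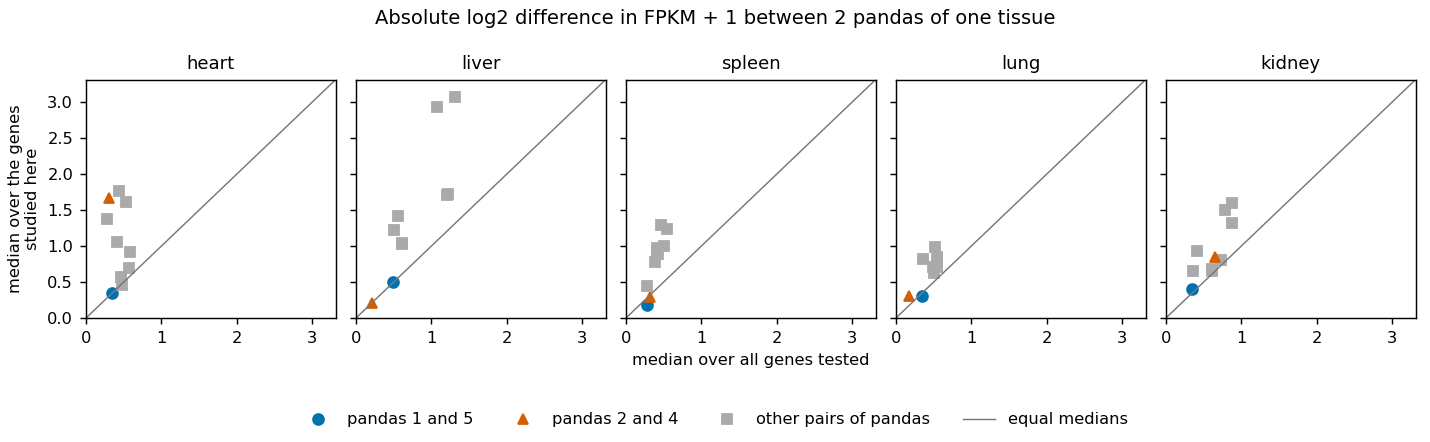
Each point is a pair of pandas within a tissue, with the median absolute log2 difference over all genes (horizontal axis) against that over the genes described here (vertical axis), and the line marks equal medians. The pairs of pandas 1 and 5 and of pandas 2 and 4 are marked, and the liver pair of pandas 2 and 4 is at 0.21 on the vertical axis.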

How the data were processed

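Libraries were sequenced as paired-end reads. The authors aligned reads to the ailMel1 assembly with HISAT2, and used HTSeq in its union mode, otherwise at default settings, to count them. The deposited values are FPKM, that is, fragment counts scaled by exon length and by library depth, for every gene and library. HTSeq assigns reads by strand at its default. Reads shared between paralogs, such as serpins, were not examined. One of the 48 genes counts in the totals and is not reported here by name. Genes were matched by the identifiers paired with names in the study's lists of tissue-specific genes, and the fold changes and p-values of those lists were not used.

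The genes described, the marker and pathway lists and the tests were chosen with earlier results of these data known. Genes given in every library were the highest of each role, the 12 with the most calls in unused pairs, the 5 largest differences by cause of death in the liver (none was called), and those not listed for the liver, 20 in all; further values were chosen after they were seen. Differences were tested with limma 3.58.1 in R 4.3.3, with trend, on log2(FPKM + 1), for genes with a mean above 1 FPKM, and scripts were tested on simulated data. Means, shares and ratios were computed in Python 3.11.15 with pandas 2.3.3.

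Every value above 0 was a whole multiple of what 1 read is worth within 0.05 (24207 of 24207 genes), and limma-voom on these recovered reads was added after seeing the data. Other alternatives were TMM factors, quantile normalization, a pseudocount of 0.1, no filter on low values, a log2 threshold of 1, one fit of all 25 libraries, a block for the panda, and leaving out each library. The same number carries the same sex, age, cause and time of death in every tissue, and the study took all tissues from each panda, so numbers pair the samples. Deviations from the tissue means correlated at 0.0870 to 0.537 (median 0.387) over 50 same-number pairs and at -0.490 to 0.398 (median -0.126) over 200 others. Floors cover counting error only, whereas SDs and SEs describe the spread between libraries.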

Additional observations from a re-analysis of the deposited data

Results flagged for a closer look

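In 82 groups of 5 libraries, the gap of the highest or lowest library to the next was compared with the whole range. The groups were the named genes by tissue and the share of FPKM held by all genes described. Of these groups 10 passed the critical ratio of 0.71, which normally distributed values pass about 1 time in 20. The values were FPKM without a log and the groups share libraries, so the number that passed cannot be compared with that rate. Panda 3 supplied 4 of these: its kidney was far above the others for SERPINA1 (420.7 FPKM, next 87.0 FPKM), SERPING1 (402 FPKM, next 200.2 FPKM) and C1S (57.8 FPKM, next 22.5 FPKM), and its lung for SERPINA1 (59.3 FPKM, next 19.5 FPKM). Panda 4 supplied 5: its kidney was far above the others for SERPINA3 (434 FPKM, next 77.6 FPKM) and ITIH3 (30.03 FPKM, next 6.50 FPKM) and below them for F5 (3.48 FPKM, next 10.7 FPKM), and its heart was above the others for SERPINA3 (47.9 FPKM, next 12.2 FPKM) and ITIH3 (4.03 FPKM, next 1.70 FPKM). The remaining one was C4BPB in the liver of panda 5 (372 FPKM, next 156 FPKM). The kidney of panda 4 is the kidney with the lowest tubule marker sum, and the part of that in these values was not tested.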

How the results depend on the processing

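The 26 calls in unused pairs became 15 with TMM factors, 15 with quantile normalization, 41 with limma-voom, 58 at a log2 threshold of 1 and 27 with the panda as a block. Between heart and spleen the 8 calls became 3, 4, 13, 13 and 17 with TMM factors, quantile normalization, a pseudocount of 0.1, limma-voom and the threshold of 1. Between heart and lung the 8 calls became 2 with TMM factors and 1 with quantile normalization. Between heart and kidney the single call became 4 with the pseudocount or limma-voom, 5 at the threshold of 1, 2 with the replicate block, and 1 to 2 when a library was left out (2 without the heart of panda 5 or the kidney of panda 2). Between heart and liver limma-voom gave 1 call. The 2 calls between liver and lung ranged from 1 to 2 without a library, and F5 took the place of CPNE7 with TMM factors and with quantile normalization. Between spleen and lung the count was 2 with the pseudocount and limma-voom, 6 at the threshold of 1, and 0 to 1 without a library (ITIH3 or C1S). Between spleen and kidney it was 9 at the threshold of 1. Between lung and kidney it was 1 with TMM factors, 1 with quantile normalization, 6 at the threshold of 1, and 1 to 4 without a library (1 without the lung of panda 2 or 4, 4 without the kidney of panda 4). By cause of death, the kidney gave 0 to 2 calls without a library. Members held 60.2% of the FPKM of hepatocyte markers and members together, in place of 4.71% of all FPKM. The block changed no other call. Of the values of named genes, 460 kept their direction and side of the threshold, 37 lost the call, and none reversed. The cause of the changes was not tested. Low genes are limited by depth, and MASP1 in the spleens rests on 0 to 3 reads.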
